A study of Mus musculus with 36 samples.

Results

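The 43 genes described here encode subunits of the oxidative phosphorylation complexes that are carried in the nuclear genome. They are 21 genes of complex I, 4 of complex II, 6 of complex III, 7 of complex IV and 5 of complex V, taken by name from a list, and all 43 were found among the 24061 gene names in the deposited files. For each name the RefSeq transcript with the most reads over 36 libraries stood for the gene. RNA-seq had been run on cardiac cells of wild-type (WT) C57Bl6J mice whose hearts were given a single fraction of 12 Gy (RT) or a Sham procedure with a small animal microirradiator. Myocytes, endothelial cells and fibroblasts were each sampled at 6 hours, 7 days and 28 days, with 2 libraries for each of the 18 groups. RNA had been extracted with the RNeasy mini plus kit and libraries made with the SMARTer mRNA-Seq kit. The sources used here do not say how the cells were separated or give the age and sex of the mice. Nothing in the labels says that the 2 libraries of a group came from separate animals, so the p-values below reflect only how much such library pairs differ, which may be technical.

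Oxidative phosphorylation takes place at the inner mitochondrial membrane. Complex I (NADH dehydrogenase) and complex II (succinate dehydrogenase) pass electrons from nutrients to ubiquinone, complex III (the cytochrome bc1 complex) passes them to cytochrome c, and complex IV (cytochrome c oxidase) passes them to oxygen. The proton gradient built along the way drives complex V, the ATP synthase. Heart muscle is packed with mitochondria and covers most of its energy need by this route, whereas endothelial cells are known to rely largely on glycolysis. Complex IV has subunits with a heart and skeletal muscle isoform and a widely expressed isoform, and 3 of the muscle isoforms, Cox6a2, Cox7a1 and Cox8b, are among the 43 genes.

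Libraries held 10.2 to 19.4 M reads in myocytes, 25.9 to 45.5 M in endothelial cells and 25.6 to 31.9 M in fibroblasts. The transcripts of the 43 genes are short, with a median of 758 bp (349 to 2927 bp) against 2137 bp for all gene names, so a library that favours short transcripts shifts most of them together. The first of the myocyte RT libraries at 7 days had 20.8% of its reads on transcripts under 1 kb, where the other myocyte libraries had 11.4% to 13.6%, and results that rest on it are given with and without it. In Sham libraries, the summed level of 15 cardiomyocyte markers was 99860 to 120700 CPM (reads scaled to the size of the library) in myocytes, 638 to 986.5 CPM in endothelial cells and 108.9 to 207.1 CPM in fibroblasts. The 15 endothelial markers summed to 2015 to 4047 CPM in myocytes, 17810 to 19250 CPM in endothelial cells and 721.2 to 875.4 CPM in fibroblasts. The 15 fibroblast markers summed to 4985 to 8673 CPM in myocytes, 3225 to 7300 CPM in endothelial cells and 77620 to 88850 CPM in fibroblasts. Each cell type therefore carried its own markers at the highest level, and none of the markers of these 3 types was at 0 in any library. In such bulk samples, fewer cells of a type and less RNA per cell cannot be told apart.

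Myocytes devoted far more of their transcripts to oxidative phosphorylation than the other cells. In the 6 Sham libraries of each type, the 43 genes together took 3.87% to 4.59% of all reads in myocytes (median 4.15%), 0.366% to 0.510% in endothelial cells (median 0.457%) and 0.316% to 0.337% in fibroblasts (median 0.322%). The ratio of the means was 9.47 for myocytes over endothelial cells and 12.9 for myocytes over fibroblasts. Each complex contributed to this order. The ATP synthase genes took the largest share in every cell type, with medians of 1.44% in myocytes, 0.167% in endothelial cells and 0.117% in fibroblasts. Complex IV genes took medians of 0.851% in myocytes, 0.0604% in endothelial cells and 0.0385% in fibroblasts, so that complex IV ranked behind complex I in endothelial cells and fibroblasts (0.116% and 0.0876%) but close to it in myocytes (0.960%).

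**Figure D1:**
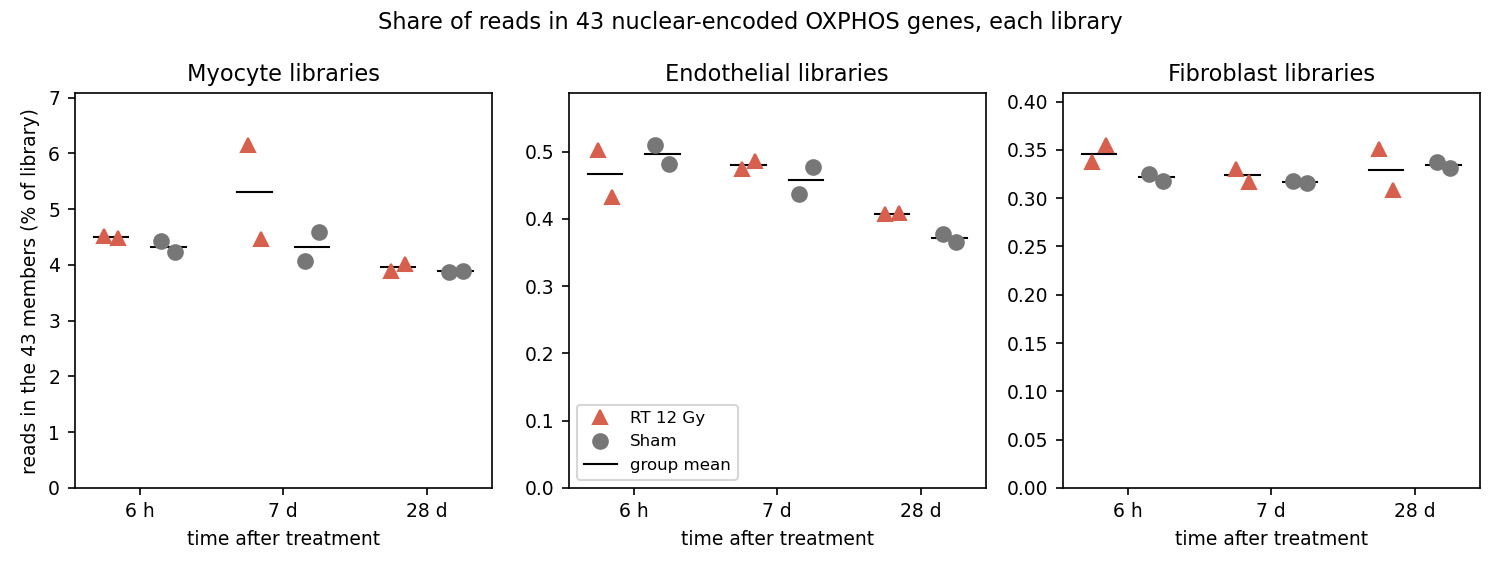
Share of all reads (percent) that fell on the 43 oxidative phosphorylation genes in each of the 36 libraries, by time, with 1 panel and 1 scale per cell type, RT libraries left of Sham libraries and a bar at each group mean. Sham myocyte libraries sit between 3.87% and 4.59%, above all libraries of the other cells, and the first myocyte RT library at 7 days stands above the others at 6.15%.

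All 43 genes were higher in Sham myocytes than in Sham endothelial cells, and all 43 were higher than in Sham fibroblasts, in edgeR's quasi-likelihood test with Benjamini-Hochberg adjustment over all genes. Most genes differ between cell types, and 82.2% of all genes tested passed between myocytes and endothelial cells (38.8% higher) and 84.5% between myocytes and fibroblasts (40.9% higher). The median log2 fold change of the 43 genes was 3.55 (11.7-fold) against endothelial cells, with a range of 2.53 to 8.28, where the median of all genes was -0.09. Against fibroblasts it was 3.81 (14.1-fold), with a range of 2.91 to 10.37. These fitted changes use edgeR's TMM scaling of libraries, whereas CPM and RPKM are scaled to total reads. For the genes given below, the fitted changes thus lie further toward myocytes than the ratios of their printed RPKM. By complex, the medians against endothelial cells were 3.44 for complex I, 3.03 for complex II, 3.35 for complex III, 4.10 for complex IV and 3.57 for complex V.

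Across the 21 genes of complex I, Sham means ran from 79.7 RPKM (Ndufs4) to 672 RPKM (Ndufa3) in myocytes, from 13.4 RPKM (Ndufs4) to 74.3 RPKM (Ndufa8) in endothelial cells and from 10.6 RPKM (Ndufs4) to 55.1 RPKM (Ndufb10) in fibroblasts. Ndufb8, an accessory membrane-arm subunit, had a lowest, median and highest Sham level of 510, 585 and 648 RPKM (reads scaled to transcript length and library size) in myocytes. It had 46.3, 62.7 and 91.4 RPKM in endothelial cells and 38.1, 40.6 and 45.0 RPKM in fibroblasts. The 3 ranges were separate, and the log2 fold change was 3.68 ± 0.08 (SE) against endothelial cells and 4.22 ± 0.09 against fibroblasts, with adjusted p = 5.69e-17 and 1.26e-17. Ndufs4, a subunit whose loss causes mitochondrial disease in people and mice, thus had the lowest Sham mean of the 43 genes in myocytes, with a median of 79.5 RPKM, against 13.7 RPKM in endothelial cells and 10.2 RPKM in fibroblasts. Ndufa8 had the smallest gap between myocytes and endothelial cells, with Sham medians of 309 RPKM in myocytes and 72.2 RPKM in endothelial cells and a log2 fold change of 2.53 ± 0.06.

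The 4 genes of complex II had Sham means of 203 RPKM (Sdhd) to 420 RPKM (Sdhb) in myocytes, a narrower range than in the other complexes. Sdhb, the iron-sulfur subunit, had 378, 420 and 457 RPKM in Sham myocytes (lowest, median, highest), against 29.7, 36.1 and 43.6 RPKM in endothelial cells and 28.1, 29.9 and 31.1 RPKM in fibroblasts. Endothelial and fibroblast ranges overlapped, and myocytes lay above both, by a log2 fold change of 3.99 ± 0.07 and 4.22 ± 0.07. In complex III, Sham means in myocytes ran from 311 RPKM (Uqcrc2) to 1006 RPKM (Uqcrq). Uqcrc2, a core subunit, had 287, 310 and 331 RPKM in Sham myocytes, against 41.3, 53.6 and 59.1 RPKM in endothelial cells and 29.8, 31.6 and 33.3 RPKM in fibroblasts. Here the 3 ranges were separate, with a log2 fold change of 3.06 ± 0.06 for myocytes over endothelial cells and 3.70 ± 0.06 for myocytes over fibroblasts.

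In complex IV, Cox4i1, the common form of subunit 4, was the most abundant of the 43 genes per length in myocytes, with 2021, 2164 and 2418 RPKM in Sham libraries. It was at 236, 326 and 425 RPKM in endothelial cells and 195, 216 and 226 RPKM in fibroblasts, and its log2 fold change was 3.24 ± 0.08 for myocytes over endothelial cells and 3.77 ± 0.08 for myocytes over fibroblasts. In complex V, Sham means in myocytes ran from 309 RPKM (Atp5c1, the central stalk's gamma subunit) to 1922 RPKM (Atp5b, the beta subunit that makes ATP). Atp5a1, the catalytic core's alpha subunit, had 1111, 1170 and 1321 RPKM in Sham myocytes, against 115, 144 and 154 RPKM in endothelial cells and 103, 106 and 108 RPKM in fibroblasts. The log2 fold change of Atp5a1 was 3.57 ± 0.07 for myocytes over endothelial cells and 3.91 ± 0.08 for myocytes over fibroblasts, and again no range overlapped another.

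**Figure D2:**
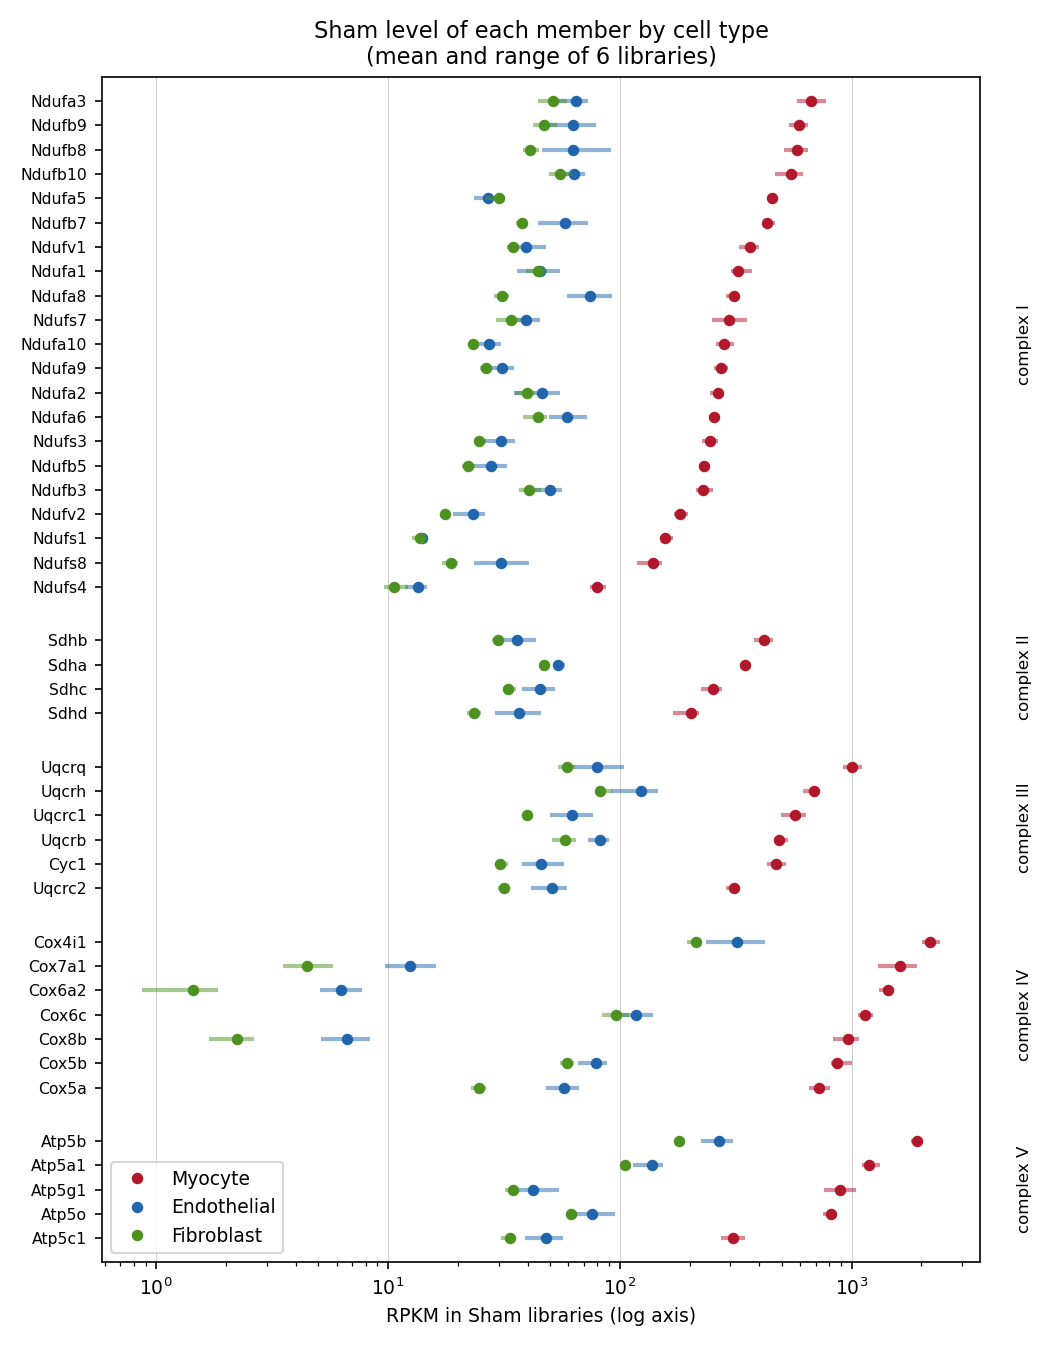
Sham levels of the 43 genes in each cell type on a log axis of RPKM, by complex, with a point for the mean of 6 libraries and a line from the lowest to the highest. Myocyte levels lie above the others for all 43 genes, and the gap is widest for Cox6a2, Cox7a1 and Cox8b.

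The gap between endothelial cells and fibroblasts was small. Of the 43 genes, 39 were higher in Sham endothelial cells, 1 was lower and 3 did not pass, where 79.1% of all genes passed (40.1% higher and 39% lower), and the median log2 fold change was 0.35. The lower gene was Ndufa5, a complex I subunit, with Sham medians of 26.8 RPKM in endothelial cells and 30.5 RPKM in fibroblasts (log2 fold change -0.19 ± 0.06, adjusted p = 8.72e-03). The genes that did not pass were Ndufa1, Ndufs1 and Ndufs7, all of complex I. Apart from the muscle isoforms, the widest gaps were those of Ndufa8 (1.21 ± 0.05) and Cox5a (1.17 ± 0.06), a nuclear subunit of complex IV. The complex IV genes had a median of 1.17, against 0.27 for complex I, 0.32 for complex II, 0.53 for complex III and 0.33 for complex V. That of complex IV rests on its 3 muscle isoforms (2.09 for Cox6a2, 1.43 for Cox7a1, 1.53 for Cox8b), since Cox4i1 (0.52), Cox5b (0.38) and Cox6c (0.24) lay with the other complexes. Summed cardiomyocyte markers were also higher in Sham endothelial libraries (638 to 986.5 CPM) than in Sham fibroblast libraries (108.9 to 207.1 CPM). The part of carried-over myocyte RNA in the gaps of these 3 isoforms was not tested.

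The muscle isoforms of complex IV stood apart from the other members. Cox6a2 had 1315, 1462 and 1518 RPKM in Sham myocytes (lowest, median, highest), against 5.11, 6.22 and 7.70 RPKM in endothelial cells and 0.866, 1.47 and 1.84 RPKM in fibroblasts. Cox7a1 had 1299, 1652 and 1910 RPKM in myocytes, against 9.76, 11.9 and 16.1 RPKM in endothelial cells and 3.54, 4.44 and 5.80 RPKM in fibroblasts. Cox8b had 832, 1002 and 1080 RPKM in myocytes, against 5.15, 6.60 and 8.37 RPKM in endothelial cells and 1.69, 2.33 and 2.64 RPKM in fibroblasts. No range of one cell type overlapped another for these 3 genes. Myocytes exceeded endothelial cells by a log2 fold change of 8.28 ± 0.12 for Cox6a2 (311-fold), 7.48 ± 0.10 for Cox7a1 (178-fold) and 7.63 ± 0.09 for Cox8b (199-fold). They exceeded fibroblasts by 10.37 ± 0.14 for Cox6a2 (1324-fold), 8.91 ± 0.11 for Cox7a1 (482-fold) and 9.16 ± 0.10 for Cox8b (572-fold). Beside these low levels in endothelial cells and fibroblasts stand the cardiomyocyte transcripts of the same libraries. Cox6a2 had 3.53 to 4.22 reads per 100 reads of Myh6, the heart's myosin heavy chain, in Sham myocytes, 6.05 to 9.62 in endothelial cells and 3.51 to 6.06 in fibroblasts. Cox7a1 had 1.94 to 2.65 in myocytes, 5.85 to 11.6 in endothelial cells and 6.07 to 10.2 in fibroblasts, and Cox8b had 1.23 to 1.66 in myocytes, 2.81 to 6.09 in endothelial cells and 2.46 to 5.46 in fibroblasts. The ratio of Cox7a1 and Cox8b was thus higher in the other cells than in myocytes without overlap, while that of Cox6a2 overlapped between myocytes and fibroblasts. For Cox4i1, which all cells use, the same ratio was 5.31 to 6.48 in myocytes, 249 to 610 in endothelial cells and 517 to 941 in fibroblasts. The part of carried-over myocyte RNA in these low levels was not tested.

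The widely expressed counterparts, which are not among the 43 genes, followed another pattern. Cox6a1 had Sham medians of 96.4 RPKM in myocytes, 155 RPKM in endothelial cells and 98.9 RPKM in fibroblasts, and was lower in myocytes than in endothelial cells (log2 fold change -0.23 ± 0.06, adjusted p = 2.25e-03). These 2 medians lie further apart than the fitted change, which uses TMM scaling. Cox8a had 142 RPKM in myocytes, 115 RPKM in endothelial cells and 94.0 RPKM in fibroblasts. Cox7a2 had 305 RPKM in myocytes, 68.2 RPKM in endothelial cells and 39.5 RPKM in fibroblasts, and so was higher in myocytes, by 2.66 ± 0.06 over endothelial cells. Of the summed RPKM of a muscle isoform and its counterpart, Cox6a2 made up 93.3% to 94.1% in Sham myocytes, 2.79% to 4.97% in endothelial cells and 0.866% to 1.85% in fibroblasts. Cox7a1 made up 82.6% to 86.1% in myocytes, 14.8% to 17.7% in endothelial cells and 8.79% to 12.0% in fibroblasts. Cox8b made up 85.7% to 88.2% in myocytes, 5.08% to 6.22% in endothelial cells and 1.93% to 2.91% in fibroblasts. The muscle form was thus the main form of all 3 subunits in myocytes and the minor one in the other cells. Cox4i2, the form of subunit 4 known from lung, went the other way and made up 0.157% to 0.470% of its pair in myocytes, 4.34% to 6.31% in endothelial cells and 3.71% to 4.92% in fibroblasts. Atp5g1, 1 of 3 genes for the ring subunit c of ATP synthase, made up 35.9% to 38.4% of its trio in Sham myocytes, 16.6% to 20.5% in endothelial cells and 19.1% to 21.6% in fibroblasts.

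**Figure D3:**
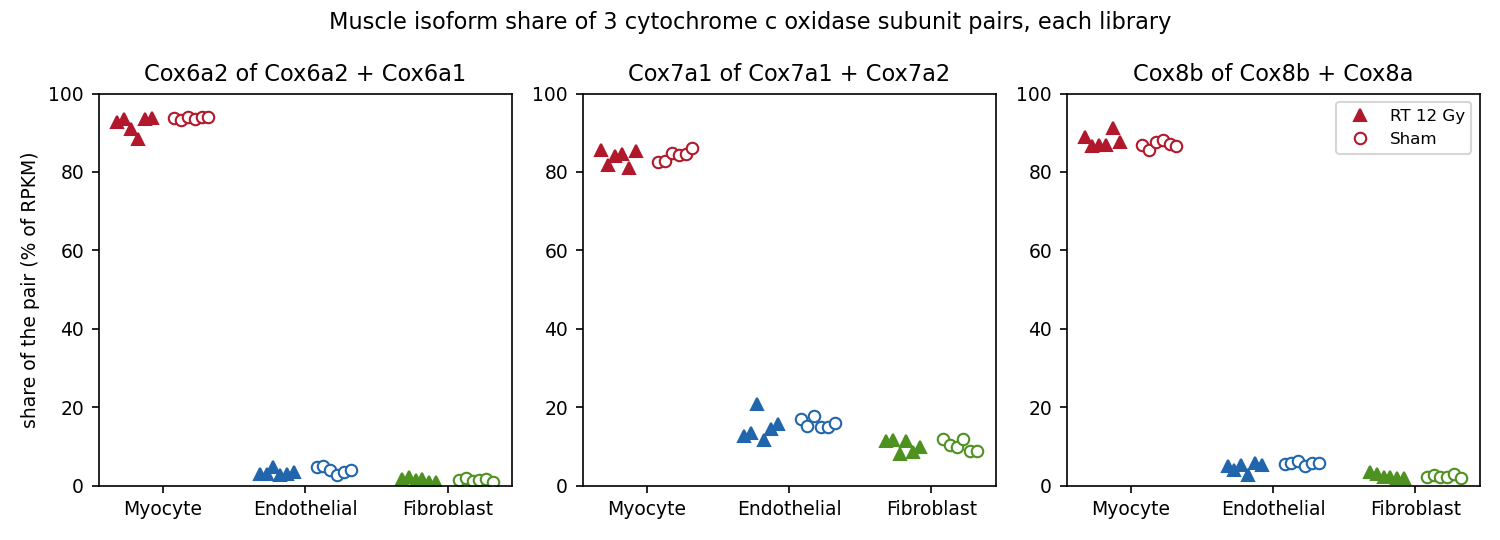
Share (percent of summed RPKM) of the muscle isoforms Cox6a2, Cox7a1 and Cox8b within each isoform pair, 1 panel per pair and 1 point per library, by cell type with RT left of Sham. Muscle isoforms make up over 80% in all Sham myocyte libraries and under 20% in all Sham libraries of the other cells.

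For 2 of the 3 pairs, the promoters of the muscle and the widely expressed isoform were compared by their CpG dinucleotides, which cluster in the promoters of most broadly expressed genes. Promoters are given for Cox7a1, Cox8b and their counterparts because the main form of these pairs differs between cell types. The promoter of Cox6a2 was not analysed here. Each sequence is the 250 bases before a listed transcription start, from RefSeq on GRCm38.p6. They run 5′ to 3′ on the gene's strand, with every CpG in capitals. For Cox7a2 this start lies inside the RefSeq span of the gene (chr9:79755241-79771422), and for the others at the edge of the span. Cox7a1 lies at chr7:30183921-30184170 on the plus strand, Cox7a2 at chr9:79759854-79760103, Cox8b at chr7:140900447-140900696 and Cox8a at chr19:7217617-7217866, these last 3 on the minus strand.
Cox7a1: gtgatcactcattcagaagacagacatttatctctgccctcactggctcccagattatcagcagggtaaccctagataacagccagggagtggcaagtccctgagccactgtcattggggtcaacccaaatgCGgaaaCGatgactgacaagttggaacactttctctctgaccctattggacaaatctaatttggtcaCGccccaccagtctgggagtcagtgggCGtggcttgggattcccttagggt
Cox7a2: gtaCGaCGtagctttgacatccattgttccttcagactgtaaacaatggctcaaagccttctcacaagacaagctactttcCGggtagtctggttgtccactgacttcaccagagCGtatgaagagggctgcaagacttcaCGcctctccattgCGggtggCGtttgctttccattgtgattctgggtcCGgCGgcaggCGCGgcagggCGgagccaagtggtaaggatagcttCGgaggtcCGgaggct
Cox8b: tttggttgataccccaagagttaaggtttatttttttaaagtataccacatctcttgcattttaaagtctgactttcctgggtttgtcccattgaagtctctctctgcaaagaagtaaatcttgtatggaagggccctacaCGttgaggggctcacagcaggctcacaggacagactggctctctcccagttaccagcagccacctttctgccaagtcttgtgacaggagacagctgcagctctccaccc
Cox8a: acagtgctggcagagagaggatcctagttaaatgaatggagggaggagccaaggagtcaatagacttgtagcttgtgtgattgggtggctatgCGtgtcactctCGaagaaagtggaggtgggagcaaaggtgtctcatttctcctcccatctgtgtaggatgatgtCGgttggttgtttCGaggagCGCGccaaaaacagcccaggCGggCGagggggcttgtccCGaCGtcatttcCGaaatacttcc
Cox7a1 had 4 CpG in this window and Cox7a2 had 14, while Cox8b had 1 and Cox8a had 11. Of the 43 genes, 31 matched the promoter table, and the other 29 of these had 7 to 28 CpG with a median of 15, where the median over 27025 genes was 6 and 44.5% had at most 4. The NRF1 string made of GCGCA, any base and GCGC, searched on both strands, occurred in 4 of the 31 (12.9%), namely Ndufa5, Ndufa8, Sdha and Sdhd, counting the first listed promoter of each gene, and in 3.86% of all promoters. The ETS string CCGGAAG occurred in 4 of the 31 (12.9%), namely Ndufb7, Ndufs3, Sdhd and Uqcrh, and in 7.05% of all promoters. The ERR string AAGGTCA occurred in 0 of the 31 and in 4.05% of all promoters, which says only that these letters are not in this window.

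Regulators and partners of the pathway were compared as lists drawn up by function. Of 40 other nuclear subunits, 38 were higher and 2 lower in Sham myocytes than in endothelial cells, and 39 were higher and 1 lower than in fibroblasts. Of 40 assembly factors, which help to build the complexes, 39 were higher and none lower than in endothelial cells, and all 40 were higher than in fibroblasts, with a smaller median log2 fold change (1.79 against endothelial cells, 1.75 against fibroblasts) than the 43 genes. Of 16 regulators of mitochondrial biogenesis, 11 were higher and 4 lower in myocytes than in endothelial cells, so nearly all were called, as were most of all genes (82.2%, and 38.8% higher). Ppargc1a, the coactivator PGC-1α that drives mitochondrial biogenesis, was higher by a log2 fold change of 6.25 ± 0.19 over endothelial cells, and Esrra, the nuclear receptor ERRα that partners it, by 3.19 ± 0.08. Tfam, which packages and transcribes mitochondrial DNA, was higher by only 0.97 ± 0.06. The 13 mitochondria-encoded subunits were not analysed here.

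The level of these genes was not steady in unirradiated endothelial cells. Between the 3 times in Sham endothelial cells, 32 of the 43 genes passed edgeR's F-test, where 27.4% of all genes passed, and 42 of 43 were lower at 28 days than at 6 hours, with Ndufs1 as the exception. The median log2 difference at 28 days relative to 6 hours was -0.41 (-0.78 to 0.04), and the medians were -0.39 for complex I, -0.38 for complex II, -0.49 for complex III, -0.44 for complex IV and -0.46 for complex V. Uqcrq, a small subunit of complex III, had 82.5 and 73.6 CPM at 6 hours, 62.5 and 68.2 CPM at 7 days and 44.9 and 45.8 CPM at 28 days (adjusted p = 0.00283). Ndufa8 had 108.1 and 102.0 CPM at 6 hours, 81.0 and 87.6 CPM at 7 days and 72.8 and 70.0 CPM at 28 days (adjusted p = 0.00365). Cox4i1 had 450 and 376 CPM at 6 hours, 322 and 367 CPM at 7 days and 264 and 251 CPM at 28 days (adjusted p = 0.00522). For Uqcrq, Ndufa8 and Cox4i1, each time lay below the one before it with no overlap, and 35 of the 43 genes had means in this order.

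Other features of these Sham endothelial libraries moved with the times. Transcripts under 1 kb took 8.64% and 8.39% of reads at 6 hours, 7.30% and 7.93% at 7 days and 6.67% and 6.40% at 28 days. Ribosomal protein transcripts took 4.12% and 3.92% at 6 hours, 3.43% and 3.89% at 7 days and 2.92% and 2.80% at 28 days. The nuclear RNA Malat1 had 517 and 795 CPM at 6 hours, 866 and 795 CPM at 7 days and 1471 and 1317 CPM at 28 days, and the nuclear RNA Neat1 had 41.4 and 47.2, 49.2 and 46.2, and 136 and 131 CPM at these times. The summed fibroblast markers were 3225 and 4113 CPM at 6 hours, 6584 and 6515 CPM at 7 days and 5234 and 7300 CPM at 28 days. The part of these features in the lower levels was not tested, apart from transcript length. With the trend over transcript length removed from each library, 10 of the 43 genes passed, against 17% of all genes. The count from the fit without that removal moved when some single Sham libraries were left out. It was far lower without the second Sham library of 28 days, which leaves 1 Sham library at that time. In Sham fibroblasts 2 of the 43 genes passed (Ndufs4 and Uqcrb), where 7.19% of all genes passed. Leaving out any 1 Sham fibroblast library gave 0 or 1. In Sham myocytes edgeR called 0 of the 43 genes, with 0 at an unadjusted p under 0.05, and 0% of all genes. The spread of that fit was estimated with the first myocyte RT library of 7 days included. By their means, 41 of the 43 genes were lower in Sham myocytes at 28 days than at 6 hours. Their median log2 difference was -0.14, smaller than in endothelial cells. Such a count of directions is no test, since the genes are not independent of one another. Transcripts under 1 kb took 12.8% and 12.9% of reads in Sham myocytes at 6 hours, against 11.4% and 12.1% at 28 days. The part of this in the lower means was not tested. In Sham fibroblasts 9 of the 43 genes were lower at 28 days, and the median was 0.11.

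Against this background, few of the 43 genes were called in RT against Sham libraries. In the 9 comparisons of RT with Sham (3 cell types at 3 times), edgeR made 5 calls among the 43 genes, all of them higher after RT: Uqcrq in endothelial cells at 28 days, and Cox5b, Ndufa8, Cox5a and Uqcrq in fibroblasts at 6 hours. The share of all genes called ran from 0.0354% in myocytes at 28 days to 24.6% in fibroblasts at 6 hours. A low count of calls is thus not by itself a trait of the 43 genes. With so few libraries per group, a gene that was not called may still have changed. The RT and Sham libraries differed between times in level, so each time was compared with its own Sham.

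**Figure D4:**
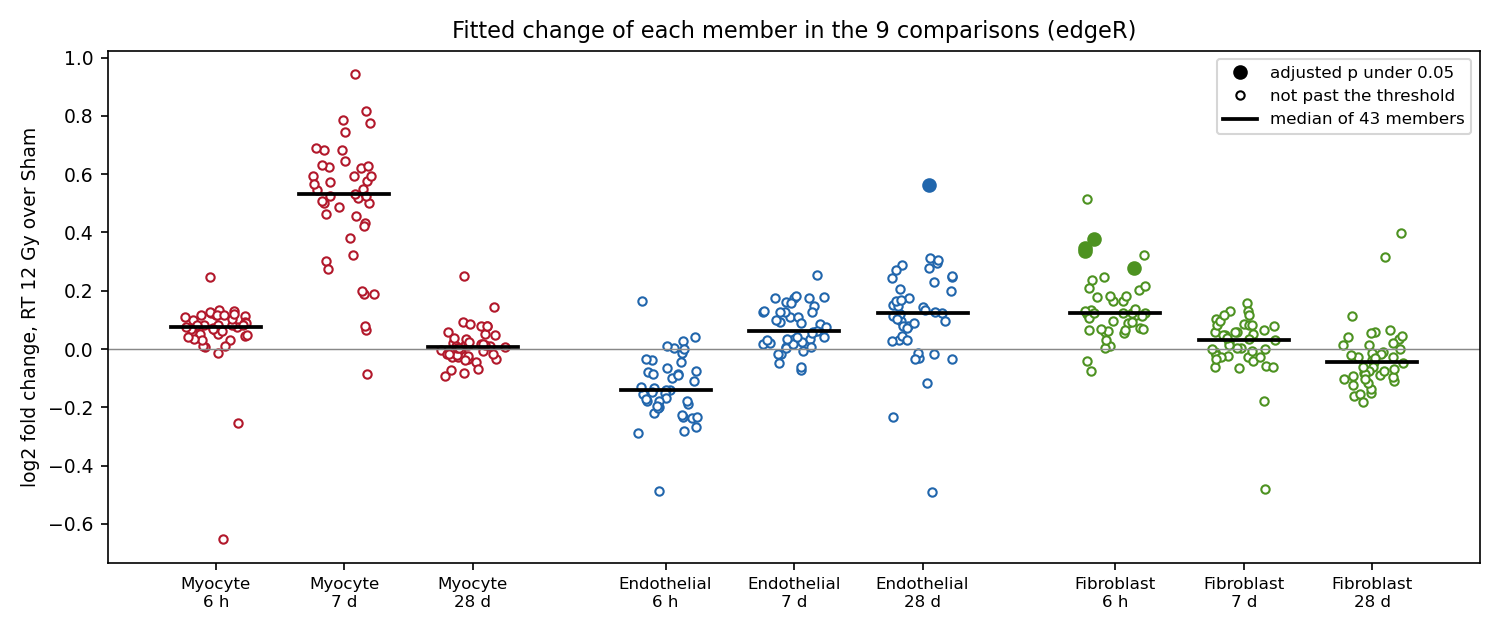
Log2 fold change of each of the 43 genes in RT against Sham libraries, for each cell type at 6 hours, 7 days and 28 days, with 1 point per gene, a bar at the median and filled points for genes with an adjusted p under 0.05. Medians lie between -0.14 and 0.12 except in myocytes at 7 days, where the median is 0.53 and no gene was called.

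In endothelial cells at 6 hours, the 43 genes together took 0.502% and 0.433% of reads in RT libraries, against 0.510% and 0.482% in Sham libraries, and edgeR called 0 of the 43 genes, where 11.3% of all genes were called. DESeq2 also called 0, and 3 had an unadjusted p under 0.05. The median log2 fold change was -0.14, with 6 genes above 0, and it was -0.30 without the first RT library and -0.02 without the second. Ndufa8 had the smallest p, with 97.0 and 81.5 CPM in RT libraries, against 108.1 and 102.0 CPM in Sham libraries (log2 fold change -0.28 ± 0.09, adjusted p = 0.073). Cox5a had 70.5 and 54.1 CPM in RT libraries, against 72.1 and 73.2 CPM in Sham libraries (adjusted p = 0.116). Both genes were lower in both RT libraries than in either Sham library. The second RT library was the lower one for both, and it had 7.22% of reads on transcripts under 1 kb, against 8.73% in the first RT library and 8.64% and 8.39% in the Sham libraries. Without the first RT library, so that the second stood alone, 8 of the 43 genes were called, all lower, against 10.2% of all genes, and without the second Sham library 1 was called.

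At 7 days edgeR and DESeq2 each called 0 of the 43 genes in endothelial cells, 1 had an unadjusted p under 0.05, and 1.82% of all genes were called. Ndufs4 came closest, with 40.3 and 40.7 CPM in RT libraries, against 32.6 and 34.9 CPM in Sham libraries (log2 fold change 0.25, adjusted p = 0.495). The median over the 43 genes was 0.06, and 37 lay above 0.

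At 28 days, the 43 genes together took 0.407% and 0.409% of reads in RT endothelial libraries, against 0.377% and 0.366% in Sham libraries, without overlap. Other features differed between these libraries without overlap as well. Malat1 had 1109 and 333 CPM in RT libraries, against 1471 and 1317 CPM in Sham libraries, and Neat1 had 89.0 and 38.4 CPM in RT libraries, against 136 and 131 CPM in Sham libraries. Erythroid markers summed to 1491 and 601 CPM in RT libraries, against 3067 and 2304 CPM in Sham libraries, and cardiomyocyte markers to 581 and 438 CPM in RT libraries, against 713 and 641 CPM in Sham libraries. Their part in the result was not tested. Of the 43 genes, 1 was called, where 9.97% of all genes were called and 5.72% were higher, and 7 had an unadjusted p under 0.05. Uqcrq had 63.4 and 70.7 CPM in RT libraries, against 44.9 and 45.8 CPM in Sham libraries (log2 fold change 0.56 ± 0.12, adjusted p = 0.00989). Both RT libraries lay above both Sham libraries. The gene Uqcrq lies at chr11:53427922-53430831 on GRCm38.p6, and its transcript NM_025352 is 499 bp long. At 6 hours it had 78.2 and 62.3 CPM in RT libraries, against 82.5 and 73.6 CPM in Sham libraries. At 7 days it had 66.9 and 74.9 CPM in RT libraries, against 62.5 and 68.2 CPM in Sham libraries. Its radiation effect was the 1 of 43 that differed between the 3 times in endothelial cells (F-test, adjusted p = 0.0371; 6.26% of all genes passed). That result was lost without the first Sham or second RT library of 6 hours or either RT library of 7 days. It was also lost without either Sham library of 28 days or the second RT library of 28 days. More of the 43 genes passed without the first RT library of 6 hours. Each of these fits leaves 1 library in a group. The call at 28 days was lost without the second RT library (log2 fold change 0.47, adjusted p = 0.0812), without the first Sham library (0.56, adjusted p = 0.0697) and without the second (0.58, adjusted p = 0.0777), each of which leaves 1 library on that side. It was also lost when all 36 libraries shared 1 spread (adjusted p = 0.123), and it was kept with the length trend removed (0.42, adjusted p = 0.00731). The median over the 43 genes was 0.12, and 35 lay above 0. Complex V's Atp5a1 had 489 CPM in both RT libraries, against 450 and 444 CPM in Sham libraries, and did not pass (adjusted p = 0.377).

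In myocytes at 6 hours, edgeR and DESeq2 each called 0 of the 43 genes, where 0.326% of all genes were called, and the median log2 fold change was 0.07. The 1 gene with an unadjusted p under 0.05 was the muscle isoform Cox6a2 (chr7:128205435-128206366, transcript of 659 bp). It had 1179 and 972.2 CPM in RT libraries, against 1717 and 1623 CPM in Sham libraries, and so was lower in both RT libraries than in either Sham library (log2 fold change -0.65 ± 0.27, unadjusted p = 0.0318). Relative to Myh6, Cox6a2 had 2.81 and 2.82 reads per 100 Myh6 reads in RT libraries, against 3.88 and 4.06 in Sham libraries, and its share of the Cox6a1 and Cox6a2 pair was 90.9% and 88.5% in RT libraries, against 94.0% and 93.6% in Sham libraries. Whether Cox6a2 passed depended on which libraries shared the estimate of spread and on whether the length trend was removed. Without the skewed myocyte library of 7 days, which is no part of this comparison, the log2 fold change was -0.65 ± 0.12 with adjusted p = 0.0135, and 1.03% of all genes were called. Fitted on the 4 libraries of the comparison alone the adjusted p was 0.00316, and with the length trend removed it was 0.0273. The other muscle isoforms did not pass. Cox7a1 had 1115 and 1240 CPM in RT libraries, against 1143 and 1060 CPM in Sham libraries, and Cox8b had 671 and 745 CPM in RT libraries, against 681 and 664 CPM in Sham libraries, with overlapping groups for both. Atp5g1 had 1356 and 851.1 CPM in RT libraries, against 1323 and 1282 CPM in Sham libraries, so that 1 RT library was low and the other was not. Atp5g1 made up 27.0% of its trio in that second RT library.

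In myocytes at 7 days, the 43 genes appeared higher as a body, and this rested on 1 library. EdgeR and DESeq2 each called 0 of the 43 genes, with 24 at an unadjusted p under 0.05, and 0.085% of all genes were called. The 43 genes took 6.15% and 4.47% of reads in RT libraries, against 4.08% and 4.59% in Sham libraries, so only the first RT library stood outside the Sham range. Cox8b had 1474 and 705 CPM in RT libraries, against 593 and 666 CPM in Sham libraries (log2 fold change 0.94 ± 0.31, adjusted p = 0.349). Uqcrq had 1787 and 922 CPM in RT libraries, against 848 and 896 CPM in Sham libraries. Uqcrh, the hinge subunit of complex III, had 1345 and 680 CPM in RT libraries, against 618 and 695 CPM in Sham libraries. In each case the first RT library lay above the other 3 libraries of that time, and the second lay within or just above the Sham values.

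In that first RT library the shift followed transcript length over all genes. Relative to the other myocyte libraries of the same time, its median log2 difference was 0.82 for genes with transcripts under 600 bp and fell step by step to -0.80 for those over 4 kb. The 43 genes had a median of 0.69, with 0.79 for the 26 under 1 kb and 0.49 for the 17 from 1 kb. Ribosomal protein transcripts took 4.52% of its reads, against 2.39% to 2.91% in the other myocyte libraries. With both RT libraries, the median log2 fold change of the 43 genes was 0.53, with 42 above 0. Without the first RT library it was 0.03, with 29 above 0 and 0 called (0.277% of all genes). Without the second RT library it was 0.92, with 39 called higher (46.6% of all genes called, 23.5% higher). With the length trend removed from each library and both kept, the median was 0.04.

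**Figure D5:**
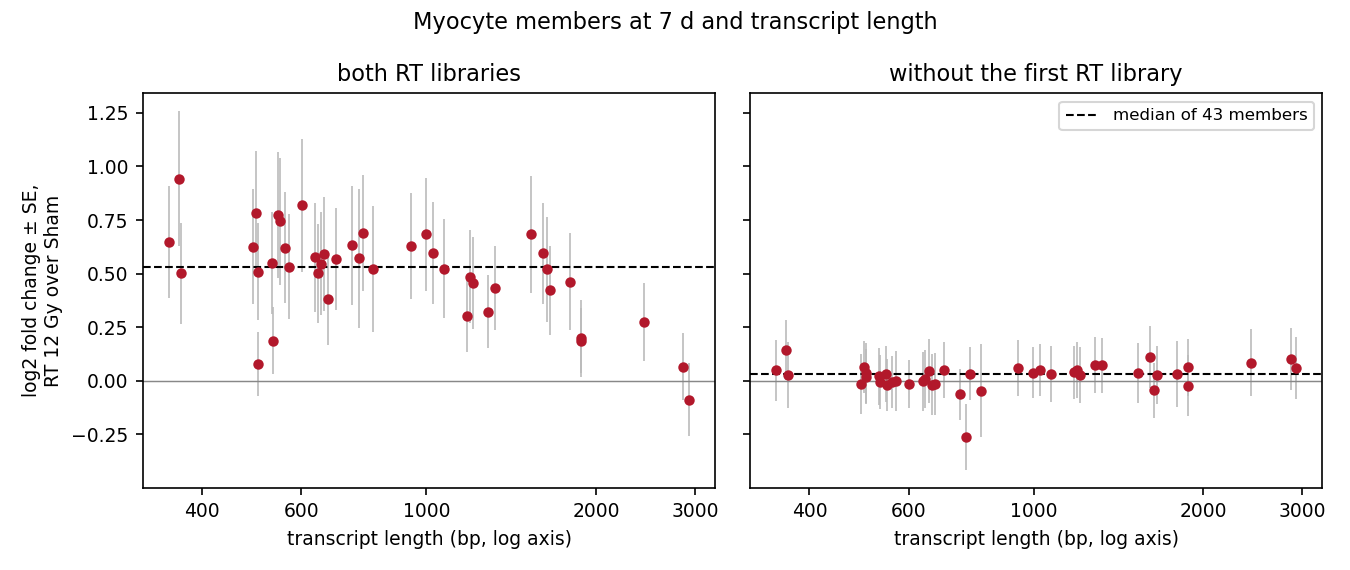
Log2 fold change of the 43 genes in myocytes at 7 days (RT against Sham) by transcript length in bp on a log axis, with both RT libraries in the left panel and without the first in the right panel. Grey lines are ± SE, and the dashed median is at 0.53 with both libraries and at 0.03 without the first.

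In myocytes at 28 days, edgeR and DESeq2 each called 0 of the 43 genes, 0 had an unadjusted p under 0.05, and 0.0354% of all genes were called. The median log2 fold change was 0.01, with 24 genes above 0. Cox8b had the smallest p, with 684 and 584 CPM in RT libraries, against 525 and 524 CPM in Sham libraries (log2 fold change 0.25 ± 0.31). Cox6a2 had 1449 and 1508 CPM in RT libraries, against 1505 and 1541 CPM in Sham libraries, with overlapping groups. The fitted spread was larger in myocytes than in other cells, with a common biological coefficient of variation of 0.172, against 0.0958 in endothelial cells. That fit holds the skewed RT library of 7 days. The RT pair of 7 days had a chi-square per degree of freedom of 141.7 between its replicates. The other myocyte pairs had 6.42 to 18.7. Without the skewed library, Cox8b at 28 days had a log2 fold change of 0.26 ± 0.12 (edgeR, adjusted p = 0.578). None of the 43 genes was called at 28 days in that fit either.

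In fibroblasts at 6 hours, the 43 genes together took 0.337% and 0.355% of reads in RT libraries, against 0.326% and 0.318% in Sham libraries. Fibroblast markers summed to 71920 and 69920 CPM in RT libraries, against 82910 and 77620 CPM in Sham libraries, and mesothelial markers to 2686 and 3108 CPM in RT libraries, against 2260 and 2599 CPM in Sham libraries. Ribosomal protein transcripts took 3.12% and 3.07% of reads in RT libraries, against 2.90% and 2.66% in Sham libraries. None of these groups overlapped, and their part in the result was not tested. Of the 43 genes, 4 were higher in RT libraries and none lower, where 24.6% of all genes were called and 12.3% were higher, so the share of the 43 genes was no larger than that of all genes. DESeq2 also called 4. Cox5b, a zinc-binding subunit of complex IV, had 66.6 and 65.9 CPM in RT libraries, against 54.3 and 49.6 CPM in Sham libraries (log2 fold change 0.35 ± 0.08, adjusted p = 0.00393). Ndufa8 of complex I had 46.9 and 48.1 CPM in RT libraries, against 39.1 and 35.9 CPM in Sham libraries (0.34 ± 0.08, adjusted p = 0.0057). Cox5a of complex IV had 32.8 and 37.0 CPM in RT libraries, against 28.4 and 25.02 CPM in Sham libraries (0.38 ± 0.11, adjusted p = 0.025). For these genes both RT libraries lay above both Sham libraries. Uqcrq of complex III had 53.7 and 56.0 CPM in RT libraries, against 47.2 and 42.9 CPM in Sham libraries (0.28 ± 0.09, adjusted p = 0.0412), likewise without overlap. By complex, the median log2 fold change was 0.32 for complex IV, 0.15 for complex III, 0.12 for complex I, 0.08 for complex II and 0.07 for complex V. The median over the 43 genes was 0.12, with 41 above 0 and 11 at an unadjusted p under 0.05.

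All 4 of these transcripts are under 1 kb, and short transcripts took 6.31% and 6.39% of reads in the RT libraries, against 5.96% and 5.48% in the Sham libraries. With the length trend removed Cox5b (adjusted p = 0.00431), Ndufa8 (0.0128) and Cox5a (0.0263) passed, and Uqcrq did not (0.0695). The count was 1 without the second Sham library, Cox5b alone, and 2 without the second RT library, Cox5b and Ndufa8. It was 5 without the first Sham library, and 0 where all 36 libraries shared 1 spread. Sdhb and Atp5a1, as examples of the other complexes, did not pass. Sdhb had 52.1 and 54.8 CPM in RT libraries, against 52.0 and 47.6 CPM in Sham libraries (0.10 ± 0.07, adjusted p = 0.359). Atp5a1 had 415 and 434 CPM in RT libraries, against 420 and 409 CPM in Sham libraries (0.03 ± 0.06, adjusted p = 0.76).

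At the later times edgeR and DESeq2 each called 0 of the 43 genes in fibroblasts, and 0 had an unadjusted p under 0.05. Of all genes, 1.84% were called at 7 days and 3.29% at 28 days. The median log2 fold change was 0.03 at 7 days and -0.04 at 28 days, and the value at 28 days was -0.15 without the first RT library and 0.04 without the second. At 28 days Ndufb5, a complex I subunit, had 37.1 and 31.8 CPM in RT libraries, against 37.8 and 37.7 CPM in Sham libraries (-0.15, adjusted p = 0.388), and the first RT library was near Sham. The fit without the first RT library leaves 1 RT library at this time, so its calls are not read as results.

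The genes followed through all comparisons as examples of each complex, Ndufb8, Sdhb, Uqcrc2, Cox4i1 and Atp5a1, passed in none of the 9, nor did Cox7a1 and Cox8b. In fibroblasts, where the spread was smallest, the log2 fold change of Atp5a1 lay between 0.00 ± 0.06 (7 days) and 0.03 ± 0.06 (6 hours). Tests of the difference itself gave 0 of the 43 genes in fibroblasts (9.89% of all genes) and 0 in myocytes (0% of all genes) for a radiation effect that changed between times, with 5 and 1 at an unadjusted p under 0.05. Between cell types, 0 of the 43 genes had a radiation effect that differed at 6 hours (2.11% of all genes), at 7 days (0.363%) or at 28 days (0.37%), with 1, 11 and 0 at an unadjusted p under 0.05. These F-tests were run with edgeR and not with DESeq2. The result between times in fibroblasts changed without the first RT library of 28 days and without the first Sham library of 6 hours. That between cell types at 6 hours changed without the first myocyte RT library of 7 days. The results between times in myocytes and between cell types at 7 days changed most without the second myocyte RT library of 7 days. The skewed first RT library then stood alone.

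The other lists of the pathway also held called genes. In fibroblasts at 6 hours, where 24.6% of all genes were called and 12.3% were higher, 11 of 40 other nuclear subunits were higher and none lower, among them Ndufb6 of complex I, with 42.5 CPM in both RT libraries, against 30.1 and 29.6 CPM in Sham libraries (log2 fold change 0.51 ± 0.08, adjusted p = 0.00032). Cycs, the mobile electron carrier cytochrome c, had 42.9 and 47.2 CPM in RT libraries, against 30.7 and 29.2 CPM in Sham libraries (0.58 ± 0.10, adjusted p = 0.000768). Of 40 assembly factors 7 were higher and none lower, led by Sdhaf1, which helps to mature the iron-sulfur subunit of complex II, with 17.7 and 17.9 CPM in RT libraries, against 7.75 and 7.96 CPM in Sham libraries (1.18 ± 0.10, adjusted p = 1.65e-06). Of 16 regulators 3 were higher and 2 lower, and the shares of the assembly factors and regulators were near those of all genes. Esrra had 51.8 and 57.4 CPM in RT libraries, against 29.6 and 27.3 CPM in Sham libraries (0.93 ± 0.09, adjusted p = 4.13e-06), and Pprc1 and Gabpb1 were the others that were higher. Esrrg and Ppara were the lower ones. None of the groups of Ndufb6, Cycs, Sdhaf1 or Esrra overlapped.

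In endothelial cells at 6 hours Esrra had 69.0 and 57.8 CPM in RT libraries, against 38.3 and 36.3 CPM in Sham libraries (log2 fold change 0.72 ± 0.11, adjusted p = 0.00116). Sdhaf1 had 25.01 and 20.3 CPM in RT libraries, against 13.7 and 11.6 CPM in Sham libraries (0.79 ± 0.14, adjusted p = 0.00279). Both genes were thus called in fibroblasts and in endothelial cells at 6 hours. Of the 40 other nuclear subunits, Ndufb6 alone was called in endothelial cells at this time, where 11.3% of all genes were called (0.48 ± 0.13, adjusted p = 0.0322), and Sco2, a copper chaperone of complex IV, was lower (-0.44 ± 0.11, adjusted p = 0.018). At 28 days in endothelial cells 7 of the 40 other nuclear subunits were higher and none lower, where 5.72% of all genes were higher, with a median of 0.20. Atp5d, the delta subunit of ATP synthase, had 89.8 and 95.6 CPM in RT libraries, against 71.1 and 67.3 CPM in Sham libraries (0.42 ± 0.10, adjusted p = 0.0187). The others were Ndufa11, Ndufa12, Ndufb2, Ndufb6, Cox8a and Atpif1, the inhibitor of ATP synthase. In myocytes at any time, and at 7 days in endothelial cells and fibroblasts, edgeR called no gene of these 3 lists. At an unadjusted p under 0.05 there were 23 of the 40 other nuclear subunits in myocytes at 7 days, where the skewed library enters.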

How the data were processed

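Gene expression was measured by RNA-seq in 36 libraries of 18 groups (2 libraries each). The authors deposited read counts per RefSeq transcript, each isoform counted on its own, for 33068 transcripts. Beside them the authors deposited a value that is TPM per the file headers but equals RPKM (largest difference 1.8e-12), and it is called RPKM here. The submitters' processing notes name the builds GRCm38 and mm10. The sources used here do not name the aligner or counter, or say how reads shared with pseudogenes or paralogs were handled and whether strand was used. Another 30 read columns, which belong to further libraries, were left out.

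CPM were computed from the counts, 1 transcript per name. Counts were fitted in edgeR 4.0.16 (R 4.3.3) by glmQLFit and glmQLFTest, with TMM scaling and genes kept by filterByExpr (count of 10, total of 15), 12 libraries per cell type, the 18 Sham libraries between cell types, or all 36 for differences of the radiation effect between cell types. All 43 genes passed the filter in each fit. RPKM were analysed as log2(RPKM + 1) with limma 3.58.1, and DESeq2 1.42.0 was an alternative. P-values were adjusted over all genes by Benjamini and Hochberg, with a threshold of 0.05. Fits were tested on simulated data. SE is that of the fitted contrast. For the length trend, a lowess curve of each library's log2 deviation on transcript length was removed. Full statistics went to 1 fixed gene per complex, the muscle isoforms and the genes with the smallest p. The members and lists were chosen with earlier results of these data known. Replicate libraries differed by more than sampling noise in all groups (chi-square per degree of freedom 5.63 to 141.7). All 43 genes matched RefSeq GRCm38.p6, and depth ranges stand in the report.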

Additional observations from a re-analysis of the deposited data

Results flagged for a closer look

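In endothelial cells the effect of 12 Gy on Uqcrq differed between 6 hours, 7 days and 28 days (edgeR F-test, adjusted p = 0.0371). Of all genes, 6.26% passed that F-test, and Uqcrq did not pass it without some single libraries or with a gene's transcripts summed. The fitted difference was past the threshold at 28 days alone, where Uqcrq had 63.4 and 70.7 CPM in RT libraries, against 44.9 and 45.8 CPM in Sham libraries. Its Sham level itself was lower at 28 days than at 6 hours, when the Sham libraries had 82.5 and 73.6 CPM.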

How the results depend on the processing

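Counts of called genes and summed levels were recomputed under other settings. Of 183, 163 stayed within 1.5 times of the value in the report or within its spread. Of 167 recomputed without 1 library, 134 did. These values carry no sign, so they could not show a change of direction. The median log2 fold change of the 43 genes did change sign in some comparisons when single libraries were left out. It ran from -0.155 to 0.044 in fibroblasts at 28 days and from -0.011 to 0.062 at 7 days. In myocytes at 28 days it ran from -0.027 to 0.049. The other comparisons of RT with Sham kept the sign of their median. With no filter on low counts, the numbers of the 43 genes called in RT against Sham were 1 (lower) in endothelial cells at 6 hours, 2 at 28 days, 8 in myocytes at 7 days and 8 in fibroblasts at 6 hours. In that setting a changing radiation effect was called for 4 genes in endothelial cells, 1 in myocytes and 1 in fibroblasts, a difference between Sham fibroblast times for 6, and one between cell types for 1 at 6 hours and 3 at 7 days. With all 36 libraries sharing 1 spread the counts were 0 in endothelial cells at 28 days, 23 in myocytes at 7 days and 0 in fibroblasts at 6 hours. The 8 and 23 in myocytes at 7 days come from fits that hold the skewed first RT library. Without that library the median log2 fold change of the 43 genes was 0.03. The share of all genes called is not printed for each setting, so these counts do not set the 43 genes apart from other genes. With the transcripts of a gene summed, 0 had a changing radiation effect in endothelial cells. In myocytes at 6 hours 1 gene was called with the length trend removed, 1 with the 4 libraries of the comparison and 1 with the trend removed and the skewed library left out, this last setting chosen after seeing the data. With the trend removed, also added after seeing the data for these tests, 10 genes differed between Sham endothelial times and 1 between Sham fibroblast times. Without the muscle isoforms the Sham ratio of myocytes over fibroblasts was 11.9, against 12.9 with them. Under limma on log2(RPKM + 1) the median log2 fold change of myocytes over endothelial cells was 3.09. The cause of these shifts was not tested.

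Leaving out 1 library at a time gave 0 to 8 genes in endothelial cells at 6 hours, 0 to 3 at 28 days, 0 to 5 for a changing effect and 6 to 31 for Sham times. It gave 0 to 1 in myocytes at 6 hours, 0 to 39 at 7 days and 0 to 36 for a changing effect. In fibroblasts it gave 1 to 5 at 6 hours, 0 to 1 at 28 days, 0 to 4 for a changing effect and 0 to 1 for Sham times. Between cell types it gave 0 to 2 at 6 hours and 0 to 36 at 7 days. Where 1 library was left on a side, its spread was taken from the other groups.

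Replicate numbers were not taken to pair RT with Sham libraries, since the deviations of same-numbered libraries correlated by -0.27 to 0.29. Same-numbered endothelial and fibroblast Sham libraries correlated by 0.11 to 0.16 at the 3 times, a hint of pairing from the data, and with the replicate block 39 of the 43 genes were higher and 1 lower in endothelial cells, as without it. With a replicate block within each time, 6 genes were called in fibroblasts at 6 hours and 1 in endothelial cells at 28 days. The crossed pairing, added after seeing the data, gave 0 calls in endothelial cells at 7 days and 0 in myocytes at 28 days. The spread in myocytes limits what could be seen there, and without the skewed library the SE of Cox8b at 28 days was 0.12, against 0.31 with it.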
